A study of Homo sapiens with 24 samples.

Results

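Cells given Pink1 siRNA were compared directly with cells given Nrf2 siRNA. The comparison takes 6 of the 12 biological samples of an RNA sequencing study of ARPE-19, a human cell line derived from the retinal pigment epithelium (RPE), the pigmented layer that supports the photoreceptors. A short interfering RNA (siRNA) lowers a messenger RNA for a time without changing the gene. The 3 Pink1 siRNA samples are those labelled as Pink1 knockout or Pink1KD, and the 3 Nrf2 siRNA samples carry the corresponding Nrf2 labels; the series design describes both as siRNA, and both are treated here as knockdown. All the cells are of 1 line, and no drug, dose or time after transfection is given in the sources used here. The labels' protocols describe cells near confluence that were scratched with a pipette tip and kept for a day, without saying whether the cells used for RNA had been scratched. The other 6 samples, 3 with scramble (control) siRNA and 3 with the double siRNA against both genes, are used below as reference levels and in the estimate of the spread. Every biological sample was deposited as 2 technical replicates, which were averaged, so that 12 of the 24 deposited columns enter the comparison itself. Of the 24053 genes in the table, the 13856 whose mean over the 6 compared samples reached 1 TPM were tested.

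PINK1 is a kinase on the outer mitochondrial membrane. It is degraded in healthy mitochondria, builds up on damaged ones, and there starts the ubiquitin marking of the organelle for removal by autophagy (mitophagy). NRF2, the product of the gene NFE2L2, is a transcription factor that KEAP1 holds at a low level; when oxidants modify KEAP1, NRF2 enters the nucleus and switches on antioxidant and detoxifying enzymes through a DNA motif called the antioxidant response element (ARE). In the RPE, which is exposed to light and oxygen and digests photoreceptor membranes, both systems are known for protection against oxidative damage. Interferon-stimulated genes are a further set that appears below. They encode antiviral proteins, and they are switched on when STAT and IRF factors, activated by an interferon or by sensors of RNA and DNA, bind a motif called the interferon-stimulated response element (ISRE).

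Values are TPM, a transcript abundance corrected for transcript length and brought to a common total. Read numbers cannot be taken from TPM, and the depth behind each value is unknown. Across the genes tested, on the log2(TPM + 1) scale, technical replicates correlated with r of 0.946 to 0.970, samples of a group with 0.943 to 0.962 and samples of different groups with 0.936 to 0.952; genes are not independent replicates, and averaging raises r. The identifier ENSG00000226958, which the gene name table does not hold, took 24.9% to 35.5% of all TPM in the Pink1 siRNA samples and 29.9% to 38.6% in the Nrf2 siRNA samples. The summed level of 10 RPE markers was 1552 to 2195 TPM with Pink1 siRNA and 1349 to 1644 TPM with Nrf2 siRNA, carried mostly by the keratins KRT8 and KRT18. RPE65, the visual cycle isomerase that defines mature RPE, was at 0.08 to 0.32 TPM and at 0 to 0.36 TPM, so that this defining marker is close to absent. Of the other markers, OTX2 had group means of 68.9 TPM with Pink1 siRNA and 66.8 TPM with Nrf2 siRNA. In the same order, MITF was at 88.1 and 67.3 TPM and TYRP1 at 45.5 and 23.2 TPM. BEST1 (6.4 and 4.98), PMEL (4.83 and 6.98), SERPINF1 (2.6 and 1.24) and RLBP1 (1.37 and 2.2) were less abundant. Nothing in the labels says whether the biological replicates came from separate cultures, and p-values measure the spread between these samples only.

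In the comparison of 3 samples with 3, 140 of the 13856 genes (1.01%) were called, meaning an adjusted p under 0.05 in limma, a linear model that borrows information on the spread across genes, with Benjamini-Hochberg adjustment over all genes tested. Of these, 53 (0.383%) were higher with Pink1 siRNA and 87 (0.628%) were lower. The size of the difference was at least 2-fold, on the scale of TPM + 1, for 31 of the 53 and 63 of the 87. All 140 had groups that did not overlap, which held in the same way for 1297 genes (9.36%) with every Pink1 siRNA sample above every Nrf2 siRNA sample and for 1322 genes (9.54%) with every one below. The median log2 difference over all genes tested was 0.01. The number of calls rests on all 6 samples: refitted without 1 of them, the model called between 36 genes (without Pink1 siRNA replicate 3) and 184 genes (without Nrf2 siRNA replicate 1), and 28 of the 140 were called in all 6 such fits. Below, "in all 6 refits" means that a gene was called whichever sample was left out.

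**Figure D1:**
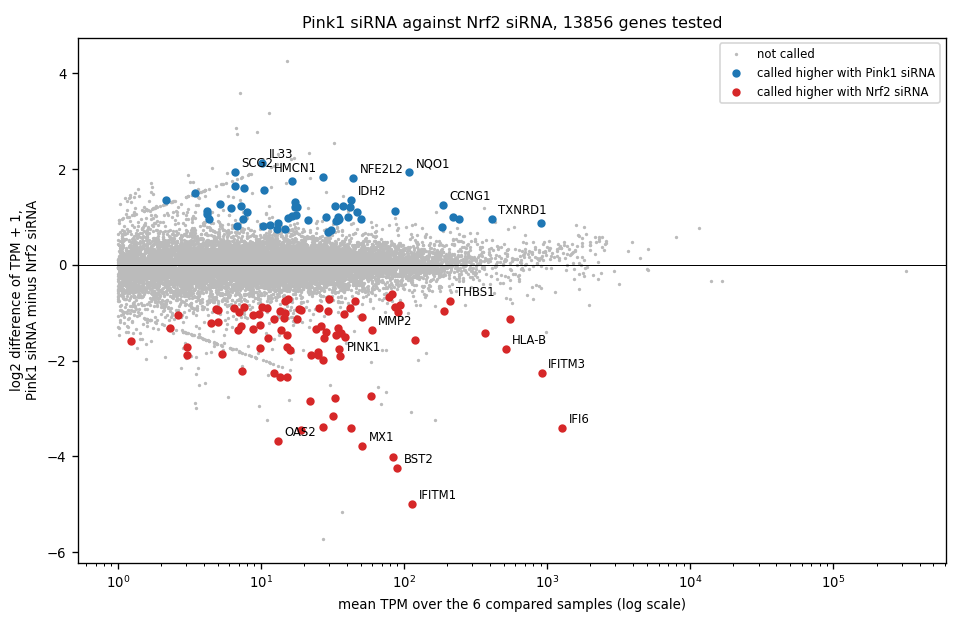
Difference between the siRNA groups against level for the 13856 genes tested. The x axis is the mean TPM over the 6 compared samples (log scale), the y axis the log2 difference of TPM + 1, Pink1 siRNA minus Nrf2 siRNA; blue points are the 53 genes called higher with Pink1 siRNA and red points the 87 called lower. The red points with the largest differences, from IFITM1 to IFI6, lie below -3, while no blue point lies above 2.13.

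The targeted genes checked the labels. PINK1 (ENSG00000158828) stood at 13.2, 12.4 and 18.3 TPM in the Pink1 siRNA samples and at 66.6, 50.7 and 54.3 TPM in the Nrf2 siRNA samples. All the Pink1 siRNA samples were thus far below all the Nrf2 siRNA samples. The log2 difference was -1.91 (SE 0.18, 95% interval -2.28 to -1.53, limma adjusted p = 0.00036), a 3.75-fold lower level. The scramble level was 55.8 ± 1.93 TPM (SD, n = 3), and Nrf2 siRNA differed from it by 0.03 on the log2 scale, so the PINK1 transcript was near the scramble level in the cells given Nrf2 siRNA. NFE2L2 (ENSG00000116044), the gene of NRF2, stood at 64.1, 70.4 and 71.6 TPM with Pink1 siRNA and at 25, 11.1 and 23.9 TPM with Nrf2 siRNA. The groups did not overlap, and Nrf2 siRNA replicate 2 was the lowest of the 6 samples. The log2 difference was 1.81 (SE 0.25, limma adjusted p = 0.00694). Against a scramble level of 80.7 ± 7.69 TPM (SD, n = 3), Pink1 siRNA differed by -0.23 and Nrf2 siRNA by -2.03 on the log2 scale. Each siRNA group was therefore low in its own target, and both genes were called in all 6 refits. In the double siRNA samples PINK1 was at 18.7 ± 2.93 TPM and NFE2L2 at 28.9 ± 6.16 TPM (SD, n = 3).

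**Figure D2:**
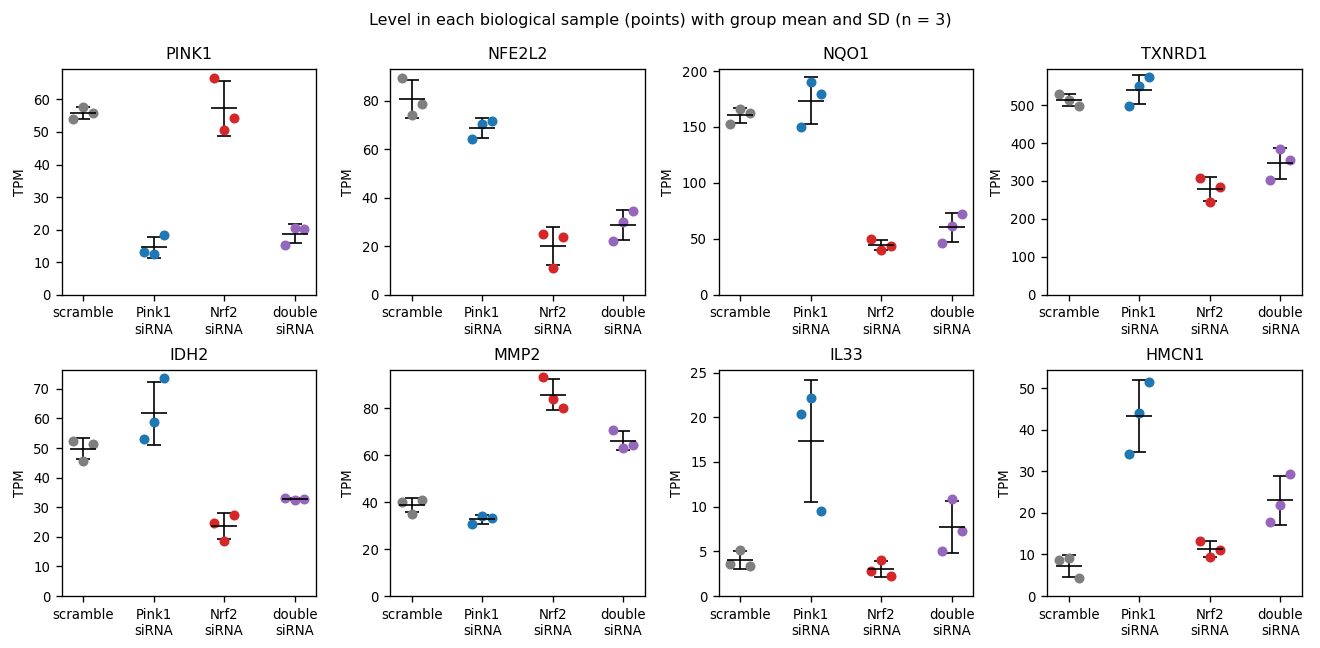
Levels in TPM (y axes, each from 0) of 8 genes in the 12 biological samples, by group (x axes). Points are samples, the horizontal bar is the group mean and the error bar the SD (n = 3); NQO1 and TXNRD1 are low in both groups given Nrf2 siRNA, PINK1 in both given Pink1 siRNA, and MMP2 is highest with Nrf2 siRNA alone.

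Of the 36 NRF2 target genes tested, 4 were called higher with Pink1 siRNA and none lower, beside 0.383% of all genes called higher. Their median log2 difference was 0.35, beside 0.01 over all genes, and 32 of the 36 lay above 0. In 17 of the 36, every Pink1 siRNA sample was above every Nrf2 siRNA sample, beside 9.36% of all genes, and in none below. These genes were listed because NRF2 is known to control them, and the group they are compared with was made low in NRF2, so their direction was chosen with the design in view. NQO1, a quinone reductase that is the standard readout of NRF2, was at 150.3, 191 and 179 TPM with Pink1 siRNA and at 49.7, 40.3 and 43.5 TPM with Nrf2 siRNA. The lowest Pink1 siRNA sample was well above the highest Nrf2 siRNA sample. The fitted difference was 1.94 (SE 0.17, 95% interval 1.57 to 2.30, limma adjusted p = 0.00036), or 3.83-fold. TXNRD1, the cytosolic thioredoxin reductase, was among the most abundant of these genes at 499, 549 and 574 TPM against 307, 246 and 284 TPM. Its difference was 0.96 (SE 0.14, adjusted p = 0.00815), and the Pink1 siRNA samples again all lay above. AKR1C3, an aldo-keto reductase, stood at 44.4 ± 3.18 TPM with Pink1 siRNA and 23 ± 1.08 TPM with Nrf2 siRNA (SD, n = 3; log2 difference 0.92, limma adjusted p = 0.0243); it has near-identical relatives, between which reads can be split wrongly. SLC48A1, a heme transporter, stood at 18.8 ± 2.69 and 10.7 ± 0.184 TPM (SD, n = 3; log2 difference 0.75, limma adjusted p = 0.0194). NQO1 and TXNRD1 were called in all 6 refits. AKR1C3 was called in the refit without Nrf2 siRNA replicate 1 alone, with adjusted p of 0.071 to 0.116 in the other 5, and SLC48A1 lost its call without Pink1 siRNA replicate 2 or 3 or Nrf2 siRNA replicate 2 or 3 (0.0851 to 0.102).

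HMOX1 and the genes of glutathione synthesis did not pass the test. HMOX1, the heme oxygenase that is often used as an NRF2 readout, was at 10.8, 11.6 and 14.6 TPM with Pink1 siRNA and at 6.88, 11.9 and 7.41 TPM with Nrf2 siRNA; the groups overlapped, and the difference of 0.48 did not pass the test (adjusted p = 0.402). The following members were chosen after their values were seen. GCLC, the catalytic subunit of glutamate-cysteine ligase, was at 14.6 ± 2.46 and 14.2 ± 1.22 TPM (SD, n = 3), a difference of 0.03 with a 95% interval of -0.40 to 0.46. SLC7A11, the cystine transporter, had a difference of -0.16 (-0.69 to 0.38), the lowest of the list. The ferritin light chain FTL was at 1838, 1953 and 2301 TPM against 1097, 1118 and 1195 TPM, with no overlap and a difference of 0.83 (adjusted p = 0.0959). Its level relative to scramble differed by 0.78 with Pink1 siRNA and by -0.05 with Nrf2 siRNA. NQO1, by contrast, differed from scramble by 0.11 and -1.83. Averaged over the 36 genes, the log2 level relative to the scramble mean was -0.0046, 0.11 and 0.19 in the Pink1 siRNA samples and -0.28, -0.38 and -0.33 in the Nrf2 siRNA samples.

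Some of these genes carry the core of the ARE, written TGACNNNGC, near their start. RefSeq promoters of the build GRCh38.p14, each of 300 bases from 250 before to 50 after the start, were matched by symbol for 27 of the 36 NRF2 targets, and 6 of the 27 (22.2%) held the core on either strand, beside 15.2% of the 9975 matched promoters of all genes tested and 13.6% of all 27305 promoters in the table. Among all called genes, the core was in 5 of 39 matched promoters (12.8%) of those higher with Pink1 siRNA and in 12 of 67 (17.9%) of those lower. TXNRD1 was the only one of the 4 called members with a match in this window. The sequence is shown because TXNRD1 passed the test in all 6 refits; the 60 bases lie within the 250 before the start, and capitals mark the core.
TXNRD1, chr12:104215654-104215713, plus strand: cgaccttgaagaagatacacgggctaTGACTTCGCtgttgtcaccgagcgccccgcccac
A match is a description of letters, and the window leaves out more distant elements.

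Genes of mitochondrial redox balance lay on the same side for the most part. Of 18 tested, 1 was called, IDH2, beside 0.383% of all genes called higher. The median was 0.27, with 13 above 0. IDH2, the mitochondrial isocitrate dehydrogenase that makes NADPH, was at 53, 58.7 and 73.6 TPM with Pink1 siRNA and at 24.7, 18.8 and 27.3 TPM with Nrf2 siRNA. No Nrf2 siRNA sample reached the level of any Pink1 siRNA sample. The difference was 1.36 (SE 0.16, limma adjusted p = 0.00242), or 2.56-fold, and it was called in all 6 refits. Scramble was at 49.9 ± 3.7 TPM, from which Nrf2 siRNA differed by -1.06 (adjusted p = 0.0221) and Pink1 siRNA by 0.29 (adjusted p = 0.507). GSR, glutathione reductase, was chosen after its value was seen; its difference was 0.74 (adjusted p = 0.326).

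The interferon-stimulated genes had the largest median difference of the 26 lists compared. Of 42 tested, 22 were called lower with Pink1 siRNA and none higher, beside 0.628% of all genes called lower. All 42 had differences below 0, with a median of -2.21, and in 41 every Pink1 siRNA sample was below every Nrf2 siRNA sample, beside 9.54% of all genes. IFITM1, a membrane protein that blocks entry of enveloped viruses, was at 4.37, 7.99 and 1.9 TPM with Pink1 siRNA and at 60.5, 449.6 and 163 TPM with Nrf2 siRNA. Nrf2 siRNA replicate 2 was the highest sample and Pink1 siRNA replicate 3 the lowest. The difference was -5.00 (SE 0.94, 95% interval -7.03 to -2.96, limma adjusted p = 0.0244), or 31.9-fold lower with Pink1 siRNA. BST2 (tetherin), which holds budding virions at the cell surface, was at 7.68, 8.28 and 4.5 TPM against 72.2, 317 and 130.0 TPM, a difference of -4.25 (SE 0.67, adjusted p = 0.0105). IFI27, a small mitochondrial and nuclear membrane protein, was at 6.1, 6.71 and 7.49 TPM against 48.5, 304 and 131 TPM, a difference of -4.02 (adjusted p = 0.0351). Both genes had the same order of the Nrf2 siRNA samples as IFITM1, with replicate 2 highest and replicate 1 lowest. IFI6, the most abundant of the list, was at 239, 287 and 132 TPM with Pink1 siRNA and 1542, 3226 and 2241 TPM with Nrf2 siRNA. That is 10.7-fold lower with Pink1 siRNA (log2 difference -3.41, SE 0.55, adjusted p = 0.0121), with a wide gap between the groups.

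The promoters of these genes share letters. The ISRE core searched was GAAANNGAA, on either strand, with overlapping matches allowed. It was present in 24 of the 34 matched promoters of the list (70.6%), beside 6.29% of the 9975 matched promoters of all genes tested and 8.29% of all promoters in the table. Among all called genes, it was in 18 of 67 matched promoters (26.9%) of those lower with Pink1 siRNA and in 1 of 39 (2.56%) of those higher. The 18 include 13 from the called members of the list, which held it in 13 of 19 matched promoters (68.4%). The list was drawn up from genes known to respond to interferon, so the share in it is a description. Windows of 60 bases from within the 250 before the start are shown for IFITM1, BST2, IFI27 and IFI6, which have the values given above, and for OAS3; the build is GRCh38.p14, the letters run 5′ to 3′ on the strand of the gene, and capitals mark the core in either orientation.
IFITM1, chr11:313974-314033, plus strand: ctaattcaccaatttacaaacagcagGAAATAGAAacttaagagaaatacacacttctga
BST2, chr19:17405727-17405786, minus strand: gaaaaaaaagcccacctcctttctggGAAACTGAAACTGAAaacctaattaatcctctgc
IFI27, chr14:94110603-94110662, plus strand: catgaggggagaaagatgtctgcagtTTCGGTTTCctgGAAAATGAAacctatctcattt
IFI6, chr1:27672315-27672374, minus strand: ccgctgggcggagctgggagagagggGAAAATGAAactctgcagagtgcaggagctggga
OAS3, chr12:112938305-112938364, plus strand: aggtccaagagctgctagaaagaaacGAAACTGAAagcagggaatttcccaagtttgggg
In BST2 a pair of cores overlap, and in IFI27 a core in the reverse orientation lies beside one in the forward orientation. The matches begin at position -40 from the start in IFITM1, -130 in BST2, -107 in IFI27, -156 in IFI6 and -143 in OAS3.

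Members with different antiviral roles were called. The 2′-5′ oligoadenylate synthetases, which activate RNase L on double-stranded RNA, were all called: OAS2 was at 0.285, 1.3 and 0.23 TPM against 6.96, 52.5 and 17.3 TPM (log2 difference -3.69), OAS1 at 5.8 ± 2.67 against 79.4 ± 55.9 TPM (SD, n = 3; -3.40) and OAS3 at 13.6 ± 5.02 against 104 ± 62.3 TPM (SD, n = 3; -2.73). MX1, a dynamin-like GTPase that traps viral nucleocapsids, was at 3.22, 11.6 and 2.34 TPM against 33.4, 187 and 69.3 TPM, with a difference of -3.77. RSAD2 (viperin), which makes a chain-terminating nucleotide, was at 1.04, 2.85 and 0.93 TPM against 8.42, 75.1 and 26.4 TPM, with a difference of -3.45. For these genes too the Pink1 siRNA samples were all below, and Pink1 siRNA replicate 2 was the highest of its group. IFI44L (-3.39), IFI44 (-3.15), HERC6 (-2.84) and IFIT2 (-2.34) complete the members among the 15 genes with the largest differences on this side, with limma adjusted p of 0.0184 (IFI44) to 0.046 (IFI44L). HELZ2, a helicase-containing coactivator that the list does not hold, had a difference of -2.34 (adjusted p = 0.00894). GBP1, a guanylate-binding GTPase, had Pink1 siRNA samples close to each other: 19, 19.8 and 19.5 TPM with Pink1 siRNA and 45.7, 72.2 and 55.6 TPM with Nrf2 siRNA, a difference of -1.50 (SE 0.23, adjusted p = 0.00894). SP110, a nuclear body protein, was at 7.33, 8.41 and 9.83 TPM against 20.8, 53.5 and 35.3 TPM (-1.89, SE 0.29, adjusted p = 0.00894). ISG15, the ubiquitin-like modifier that gives the family its name, was chosen after its value was seen and was not called: 23.3, 36.8 and 17.9 TPM against 114, 578 and 222 TPM, a difference of -3.25 with an adjusted p of 0.0622. IFITM1, IFITM2 and IFITM3 are close in sequence, so reads may be split wrongly among them.

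**Figure D3:**
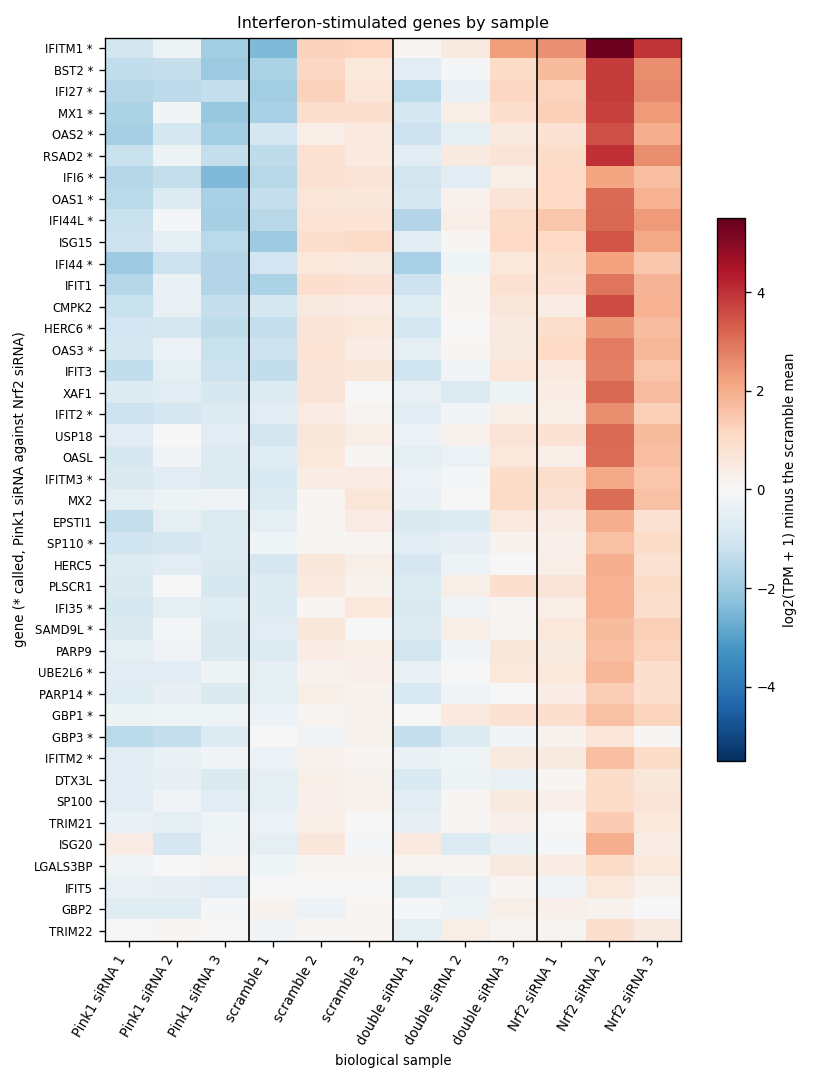
Log2(TPM + 1) minus the scramble mean for the 42 interferon-stimulated genes tested (rows, ordered by the difference between Pink1 siRNA and Nrf2 siRNA) in the 12 biological samples (columns, by group). Red is above and blue below the scramble mean; Nrf2 siRNA replicate 2 is the darkest column, and scramble replicate 1 is blue beside the other scramble samples.

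The samples within a group differed widely in these genes. Averaged over the 42 genes, the log2 level relative to the scramble mean was -0.93, -0.53 and -0.96 in the Pink1 siRNA samples and 0.68, 2.33 and 1.40 in the Nrf2 siRNA samples. The scramble samples themselves lay at -0.87, 0.49 and 0.39, and the double siRNA samples at -0.68, -0.09 and 0.53, so that scramble replicate 1 and double siRNA replicate 1 were within the range of the Pink1 siRNA samples. For 41 of the 42 genes the scramble mean lay between the siRNA groups. IFITM1 differed from scramble by -1.07 with Pink1 siRNA (adjusted p = 0.685) and by 3.93 with Nrf2 siRNA (adjusted p = 0.0968), and IFI6 by -1.78 (0.211) and 1.63 (0.232); neither single siRNA passed the test against scramble for IFITM1 or IFI6. GBP1 differed by -0.25 (0.692) and 1.25 (0.0343), so that Nrf2 siRNA passed for GBP1. SP110, at -0.92 (0.218) and 0.97 (0.184), passed with neither. All these comparisons with scramble share the scramble samples. CD68, the only blood cell marker above 1 TPM here and a lysosomal protein that other cells also make, was at 25.2, 30.5 and 30.9 TPM with Pink1 siRNA and 42.3, 105 and 52.7 TPM with Nrf2 siRNA, moving with the interferon-stimulated genes; PTPRC, which defines blood cells, was at 0 to 0.265 TPM in the 6 samples. Whether CD68 has a part in the result was not tested, and in bulk RNA fewer cells with a programme and less RNA per cell cannot be told apart.

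The calls on this list depend on which samples are in the fit, while the sign of its median did not change. The 22 calls became 2 without Nrf2 siRNA replicate 2, 5 without Nrf2 siRNA replicate 3 and 34 without Nrf2 siRNA replicate 1. They became 4, 9 and 3 without Pink1 siRNA replicates 1, 2 and 3. The median stayed between -1.59 (without Nrf2 siRNA replicate 2) and -2.61 (without Nrf2 siRNA replicate 1). GBP1 and SP110 were called in all 6 refits, and they were the only genes of the list for which this held. Without Nrf2 siRNA replicate 2, the differences were -4.28 for IFITM1, -3.68 for BST2, -3.38 for IFI27 and -3.15 for IFI6, with adjusted p of 0.128, 0.0583, 0.161 and 0.0685. BST2 and IFI6 also lost their call without Pink1 siRNA replicate 3 (adjusted p of 0.0666 and 0.071), and IFITM1 and IFI27 kept theirs only without Nrf2 siRNA replicate 1. When every gene of the table was tested, with no filter on low values, 9 members were called.

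Among the RNA and DNA sensors, STAT and IRF factors and the MHC class I genes, fewer members passed than among the interferon-stimulated genes. Of 25 sensors of foreign RNA and DNA, STAT and IRF factors, 1 was called, RIGI, beside 0.628% of all genes called lower. The median was -0.32. RIGI (RIG-I), which recognises double-stranded RNA with a 5′ triphosphate, was at 4.56, 9.58 and 6.37 TPM with Pink1 siRNA and 25.8, 99 and 51 TPM with Nrf2 siRNA. The difference was -2.78 (SE 0.49, limma adjusted p = 0.0186), with no overlap. It lost its call without Nrf2 siRNA replicate 2 (-2.30, adjusted p = 0.0942) or replicate 3 and without Pink1 siRNA replicate 1 or 3. IFIH1 (MDA5), the sensor of long double-stranded RNA, was chosen after its value was seen. It was at 7.88 ± 2.28 against 31.6 ± 17 TPM (SD, n = 3; -1.78, adjusted p = 0.0711), and did not pass although the groups did not overlap.

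Antigen presentation by MHC class I had 2 of 22 members called lower with Pink1 siRNA, beside 0.628% of all genes, a median of -0.60 and 20 members below 0. HLA-B, a heavy chain, was at 198, 226 and 244 TPM against 504, 1158 and 743 TPM, a difference of -1.76 (SE 0.29, adjusted p = 0.0132). HLA-C was at 297, 331 and 389 TPM against 560.0, 1007 and 719 TPM, a difference of -1.13 (SE 0.23, adjusted p = 0.035). Both were lowest in the Pink1 siRNA samples and highest in Nrf2 siRNA replicate 2. The heavy chains are close paralogs and highly variable between people, so the split of reads among them is uncertain. B2M, their shared light chain, chosen after its value was seen, was at 535, 587 and 474 TPM against 1055, 1786 and 1461 TPM (-1.40, adjusted p = 0.067) and was not called. Neither HLA gene kept its call in any refit but that without Nrf2 siRNA replicate 1; without Nrf2 siRNA replicate 2 the adjusted p was 0.0592 for HLA-B and 0.145 for HLA-C. The ISRE core was in 9 of 18 matched promoters of this list, beside 6.29% of those of all genes tested, and in 0 of the 2 of the called members.

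Genes of the mesenchymal state and of the transition from epithelium to mesenchyme (EMT) included 2 of 19 called lower with Pink1 siRNA, beside 0.628% of all genes, and none called higher, with a median of -0.21. MMP2, a gelatinase that cuts basement membrane collagen, was at 30.7, 34.2 and 33.1 TPM with Pink1 siRNA and 93.3, 84.2 and 80.4 TPM with Nrf2 siRNA. The samples of each group were close to each other and far from the other group. The difference was -1.37 (SE 0.13, 95% interval -1.64 to -1.09, limma adjusted p = 0.00036), or 2.58-fold lower, and it was called in all 6 refits. Relative to scramble, MMP2 differed by -0.24 with Pink1 siRNA and by 1.13 with Nrf2 siRNA. THBS1, thrombospondin 1, was at 143, 161 and 161 TPM against 279.6, 256 and 247 TPM, a difference of -0.75 (SE 0.13, adjusted p = 0.019). Its groups did not overlap, but it was called in none of the 6 refits, where the adjusted p ran from 0.0536 to 0.092. The other EMT genes in the naming rule were not called. FN1, fibronectin, was at 391, 415 and 556 TPM against 731, 496 and 688 TPM and overlapped (-0.49, adjusted p = 0.442), although it passed with samples weighted by their spread (-0.64, adjusted p = 0.0303). VIM, the intermediate filament vimentin, was at 4874 ± 534 and 5129 ± 307 TPM (SD, n = 3; -0.08, 95% interval -0.50 to 0.35). ZEB1, a repressor of epithelial genes, was at 10.7 ± 0.331 and 10.5 ± 1.37 TPM (SD, n = 3; 0.04, 95% interval -0.33 to 0.40). Of 19 epithelial junction and keratin genes none was called and the median was 0.16; the keratins KRT7 and KRT8 differed by 0.23 and 0.16 with adjusted p of 0.728 and 0.791.

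Of 26 collagens and genes of their processing and microfibrils, 2 were called higher with Pink1 siRNA and none lower, beside 0.383% of all genes called higher. The median was 0.01, as over all genes, with 14 members above 0 and 12 below. HMCN1 (hemicentin-1), a large immunoglobulin-repeat protein of basement membranes, was at 34.2, 44.1 and 51.5 TPM with Pink1 siRNA and 13.3, 9.51 and 11 TPM with Nrf2 siRNA. FBN2, fibrillin-2 of elastic microfibrils, was at 50.7, 59.7 and 66.1 TPM against 28.9, 20.3 and 26.1 TPM. In both, every Pink1 siRNA sample was above every Nrf2 siRNA sample and the scramble mean was near the Nrf2 siRNA level, at 7.33 ± 2.65 TPM for HMCN1 and 23.7 ± 0.702 TPM for FBN2 (SD, n = 3). The differences were 1.84 (SE 0.26, adjusted p = 0.00694) and 1.20 (SE 0.16, adjusted p = 0.00526), and both were called in all 6 refits. Of the 29 genes of the TGF-beta and BMP pathway none was called, with a median of 0.08. TGFBI, a matrix protein induced by TGF-beta, was the most abundant at 2759 ± 241 against 3635 ± 331 TPM (SD, n = 3; -0.40, adjusted p = 0.439), and LTBP3, which anchors latent TGF-beta, differed by 0.08. TGFBI passed the test after quantile normalization (-0.53, adjusted p = 0.0256) and after ENSG00000226958 was removed (-0.45, adjusted p = 0.0249).

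**Figure D4:**
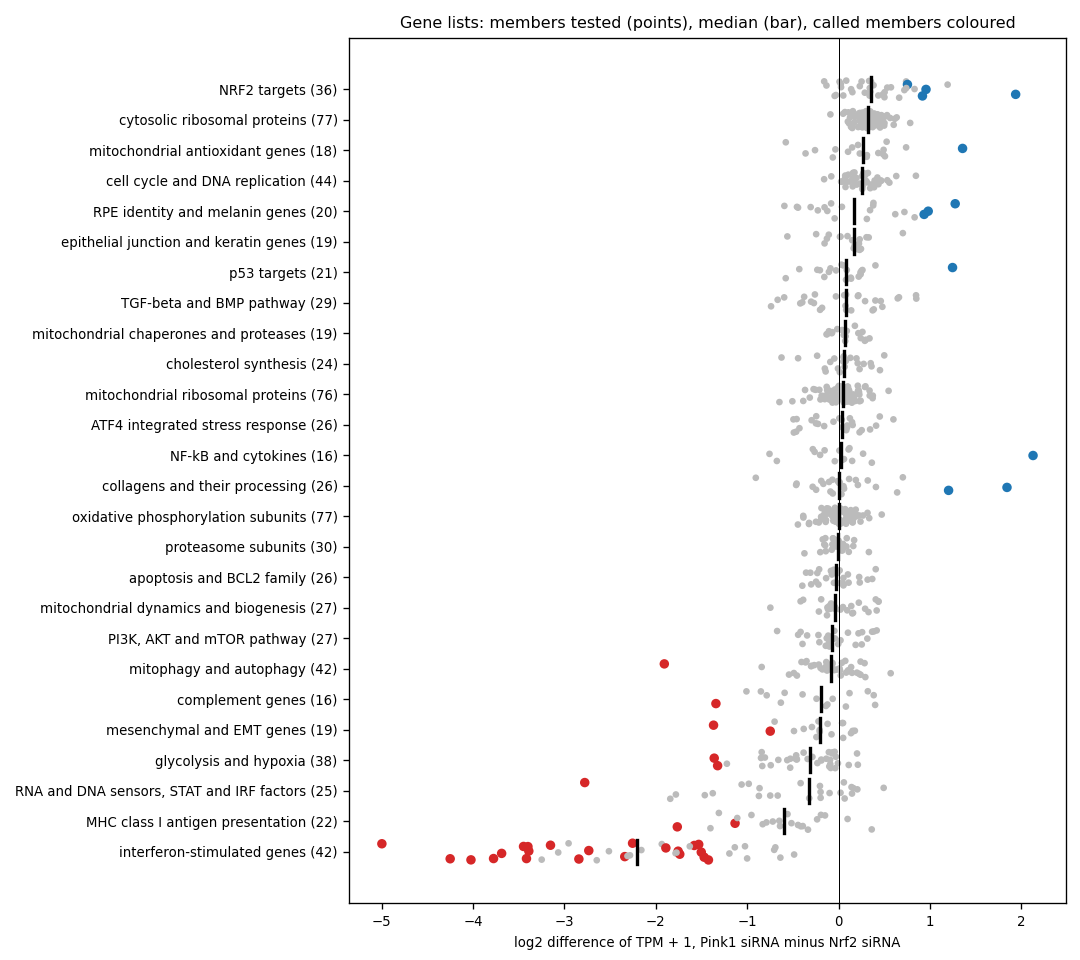
Log2 difference of TPM + 1, Pink1 siRNA minus Nrf2 siRNA (x axis), for each member tested of 26 gene lists (rows, with the number tested, ordered by median). Points are genes, grey where not called, blue where called higher and red where called lower with Pink1 siRNA, and black bars are medians, which run from 0.35 for NRF2 targets to -2.21 for interferon-stimulated genes.

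Glycolysis and hypoxia genes leaned towards Nrf2 siRNA. Of 38 tested, 2 were called lower with Pink1 siRNA, beside 0.628% of all genes, and none higher. The median was -0.31, 35 lay below 0, and 17 had groups that did not overlap on that side, beside 9.54% of all genes. PFKFB4, which sets the level of the glycolytic activator fructose 2,6-bisphosphate, was at 5.5, 7.38 and 8.22 TPM with Pink1 siRNA and 12.9, 29.5 and 19.1 TPM with Nrf2 siRNA (-1.36, SE 0.24, adjusted p = 0.0181). EGLN3 (PHD3), a prolyl hydroxylase that hypoxia induces, was at 0.905, 0.77 and 1 TPM against 4.12, 3.71 and 3.38 TPM (-1.32, SE 0.22, adjusted p = 0.0131). Neither gene overlapped, and EGLN3 was low in all 6 samples. CA9, a carbonic anhydrase used as a hypoxia marker, was at 169, 196 and 201 TPM against 254, 442 and 338 TPM; its difference of -0.84 did not pass (adjusted p = 0.148), although it did with samples weighted by their spread (-0.78, adjusted p = 0.0272). CA9 differed from scramble by 0.68 with Pink1 siRNA and by 1.51 with Nrf2 siRNA. Without Nrf2 siRNA replicate 2 no member was called, with adjusted p of 0.0656 for PFKFB4 and 0.0592 for EGLN3; without Pink1 siRNA replicate 2 there was none either. PFKFB4 kept its call only without Nrf2 siRNA replicate 1, and EGLN3 in 4 of the 6 refits. In the fit of the compared groups alone PFKFB4 was not called (adjusted p = 0.0679). With 1 technical replicate alone EGLN3 was not called (0.131 and 0.0926). The hypoxia response element core ACGTG was in 13 of 33 matched promoters (39.4%), beside 27.0% of promoters of all genes tested. It was in 0 of the 2 matched promoters of the called members. Among all called genes it was in 10 of 67 (14.9%) of those lower with Pink1 siRNA and in 8 of 39 (20.5%) of those higher.

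Among 16 complement genes, 1 was called lower with Pink1 siRNA, beside 0.628% of all genes, and none higher. That gene, C3, the central component of the cascade, was at 12, 10.9 and 17.8 TPM with Pink1 siRNA and 33.9, 37.5 and 34.2 TPM with Nrf2 siRNA, a difference of -1.34 (SE 0.27, adjusted p = 0.0355). The groups were apart, but the gene was called in none of the 6 refits (adjusted p of 0.0585 to 0.148). The list's median was -0.19, beside 0.01 over all genes, with 11 of 16 below 0.

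Pigment and RPE identity genes had 3 of 20 called higher with Pink1 siRNA, beside 0.383% of all genes, and none lower. The median was 0.17, and it was -0.02 when only technical replicate 1 was used. Of the 20, 11 lay above 0 and 9 below. The Pink1 siRNA samples were all above in 8 and all below in 4, beside 9.36% and 9.54% of all genes. SLC45A2, a melanosome transporter, was at 4.75, 9.2 and 9.36 TPM with Pink1 siRNA and 1.62, 3.26 and 2.83 TPM with Nrf2 siRNA (1.28, SE 0.26, adjusted p = 0.0379). MYO7A, the motor that moves melanosomes and phagosomes in RPE cells, was at 17.5, 19.6 and 26 TPM against 11, 9.36 and 9.83 TPM (0.98, SE 0.18, adjusted p = 0.0211). TYRP1, a melanin synthesis enzyme, was at 40, 43.6 and 53 TPM against 24.6, 23.9 and 21.1 TPM (0.94, SE 0.19, adjusted p = 0.0375). In none of the genes did the groups overlap. Scramble was lower than both for TYRP1, at 9.91 ± 1.71 TPM (SD, n = 3), from which Pink1 siRNA differed by 2.09 and Nrf2 siRNA by 1.16. TYR, tyrosinase, which starts melanin synthesis, was at 3.33, 3.81 and 4.01 TPM against 3.19, 2.65 and 2.1 TPM, apart from scramble by 1.76 and 1.38 but from each other by 0.38 only (adjusted p = 0.569). CP, ceruloplasmin, a copper ferroxidase of RPE iron export that no list here holds, had the same order: 35 ± 3.07 TPM with Pink1 siRNA, 27.4 ± 2.15 with Nrf2 siRNA and 10.9 ± 2.94 with scramble (SD, n = 3), and a direct difference of 0.34 (adjusted p = 0.59). TYRP1 was called in none of the 6 refits (adjusted p of 0.0583 to 0.162), SLC45A2 only without Pink1 siRNA replicate 1, and MYO7A only without Pink1 siRNA replicate 1 or Nrf2 siRNA replicate 1. The RPE markers PMEL and RLBP1, chosen after their values were seen, lay on the other side with no overlap. Mean levels with Pink1 siRNA and Nrf2 siRNA were 4.83 and 6.98 TPM for PMEL and 1.37 and 2.2 TPM for RLBP1.

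Among the lists of mitochondrial genes, PINK1 itself and IDH2 were the genes called. Of 42 mitophagy and autophagy genes, PINK1, the siRNA target, was the only one called, beside 0.628% of all genes called lower. The median was -0.08. BNIP3 and BNIP3L, mitophagy receptors that hypoxia induces, were chosen after their values were seen: BNIP3 was at 85.7, 95.7 and 93.7 TPM against 152, 178 and 166 TPM, with no overlap and a difference of -0.84 (adjusted p = 0.0697), and BNIP3L differed by -0.46 (adjusted p = 0.372). None of 77 nuclear-encoded subunits of oxidative phosphorylation was called, and their median was 0.003. Among them ATP5F1B, the catalytic subunit of ATP synthase, differed by 0.33 (95% interval -0.03 to 0.70) and COX7C, of cytochrome c oxidase, by 0.07 (-0.43 to 0.58). None of 76 mitochondrial ribosomal proteins (median 0.05), 27 genes of mitochondrial dynamics and biogenesis (-0.03) and 19 mitochondrial chaperones and proteases (0.07) was called. Their most abundant members, MRPL51 (0.12), MRPS6 (0.08), the fission factor MFF (0.15), the cristae protein CHCHD3 (0.09) and the chaperones HSPD1 (0.26) and HSPA9 (0.08), had differences with adjusted p of 0.683 (HSPD1) to 0.949 (MRPS6). The 13 genes encoded by mitochondrial DNA were not analysed here.

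A pair of lists leaned towards Pink1 siRNA with no gene called. Of 77 cytosolic ribosomal proteins, 76 had a difference above 0, with a median of 0.32, and in 24 every Pink1 siRNA sample was above every Nrf2 siRNA sample, beside 9.36% of all genes. RPS2, at 4017, 4066 and 5640 TPM against 3602, 2873 and 3335 TPM, differed by 0.47 (adjusted p = 0.344), and RPS3 by 0.50 (adjusted p = 0.265). RPS3 passed after quantile normalization (0.40, adjusted p = 0.0472) and after removal of ENSG00000226958 (0.44, adjusted p = 0.0342). Averaged over the list, the log2 level relative to the scramble mean was 0.15, 0.18 and 0.42 in the Pink1 siRNA samples and 0.22, -0.42 and -0.02 in the Nrf2 siRNA samples, which overlap. Nrf2 siRNA replicate 2, lowest here, also had the largest share of ENSG00000226958 among the 6 samples (38.6%). Pink1 siRNA replicate 3, highest here, had the smallest (24.9%). After removal of that identifier and rescaling, the list median was 0.26, and the median over all genes moved from 0.01 to -0.05. The rescaling acts on all genes of a sample alike, so the part of that share in the list's lean was not tested. Without Nrf2 siRNA replicate 2 the median was 0.14. These proteins have many processed pseudogenes, to which reads can be assigned wrongly. Of 44 cell cycle and DNA replication genes, 42 were above 0, with a median of 0.26, and in 23 the Pink1 siRNA samples were likewise all above, beside the same 9.36%. The most abundant, CCND1 and CDK4, which drive entry into the cycle, differed by 0.11 (95% interval -0.17 to 0.38) and 0.15 (-0.18 to 0.48).

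Few genes of stress, survival and metabolic pathways passed the test. Of 21 p53 targets, 1 was called, CCNG1 (cyclin G1), beside 0.383% of all genes called higher. CCNG1 was at 269.7, 290.4 and 227 TPM with Pink1 siRNA and 134, 81.3 and 120.3 TPM with Nrf2 siRNA, a difference of 1.25 (SE 0.23, adjusted p = 0.0194). It was highest in Pink1 siRNA replicate 2 and lowest in Nrf2 siRNA replicate 2, and it kept its call only without Nrf2 siRNA replicate 1. None of 26 apoptosis genes was called (median -0.03); BAX, a pore former, differed by 0.05 (95% interval -0.42 to 0.52), BCL2, its inhibitor, by 0.37 (-0.32 to 1.05), BCL2L1 by -0.01 and BOK by -0.05. None of 27 genes of the PI3K, AKT and mTOR pathway was called (median -0.07). AKT1, the kinase at its centre, was at 81.5 ± 8.12 and 75.8 ± 7.23 TPM (SD, n = 3), a difference of 0.10 (95% interval -0.18 to 0.38), and RHEB, the GTPase that activates mTOR, was at 99.9 ± 7.45 and 100.3 ± 9.02 TPM (SD, n = 3; adjusted p = 0.999). None of 26 genes of the ATF4 integrated stress response (median 0.04), 24 of cholesterol synthesis (0.06) and 30 proteasome subunits (-0.01) was called. ATF4 itself differed by 0.01, SLC3A2, an amino acid transporter subunit, by 0.23, FDPS and FDFT1, of the mevalonate and sterol branches, by 0.27 and 0.07, and the subunits PSMD2 and PSMA1 by -0.20 and -0.07. An adjusted p that misses the threshold does not show that levels are alike.

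Outside these pathways, the genes with the largest differences on the Pink1 siRNA side had varied roles. Of 16 NF-kB and cytokine genes (median 0.02), 1 was called, IL33, beside 0.383% of all genes called higher. IL33, a nuclear cytokine of epithelial cells that is released on damage, was at 20.4, 22.1 and 9.55 TPM with Pink1 siRNA and 2.85, 4.01 and 2.25 TPM with Nrf2 siRNA. Pink1 siRNA replicate 3 was the lowest of its group and still above every Nrf2 siRNA sample. The difference was 2.13 (SE 0.31, 95% interval 1.45 to 2.81, limma adjusted p = 0.00815), or 4.37-fold. SCG2, secretogranin II of secretory granules, was at 9.98, 13.4 and 9.66 TPM against 1.74, 2.61 and 1.98 TPM (1.95, SE 0.21, adjusted p = 0.00125). UNC5B, a netrin receptor, was at 10, 8.59 and 13 TPM against 3.4, 1.61 and 3.15 TPM (1.65, adjusted p = 0.00694), and TYRO3, a receptor kinase of the family used in phagocytosis, was at 12.2, 9.27 and 10.2 TPM against 3.25, 4.82 and 3.85 TPM (1.22, adjusted p = 0.00815). These genes were called in all 6 refits, as were ARHGDIG (1.61, adjusted p = 0.00894), and TMEM37 (1.22, adjusted p = 0.00815). With 1 technical replicate alone, ARHGDIG (adjusted p of 0.228 and 0.058) and TYRO3 (0.105 and 0.135) were not called. TMEM151A (1.30, adjusted p = 0.00894) lost its call without Nrf2 siRNA replicate 2 (0.0535). PCP4, a calmodulin regulator (1.56, adjusted p = 0.019), and SNHG19, a host transcript of small nucleolar RNAs (1.74, adjusted p = 0.0469), kept theirs only without Nrf2 siRNA replicate 1.

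The scramble samples show which siRNA group stood away from the control level. SCG2 differed from scramble by -0.03 with Pink1 siRNA and by -1.98 with Nrf2 siRNA, NQO1 by 0.11 and -1.83, and MMP2 by -0.24 and 1.13: in these the Nrf2 siRNA samples stand away from scramble. IL33 differed by 1.81 and -0.31, HMCN1 by 2.45 and 0.61, and FBN2 by 1.27 and 0.06: in these the Pink1 siRNA samples do. The scramble mean lay between the groups for 36 of the 53 genes called higher and 84 of the 87 called lower, and for 30.4% of all genes tested. The calls were chosen for a gap between the groups, and nothing is read from these counts. Both comparisons with scramble share the scramble samples.

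**Figure D5:**
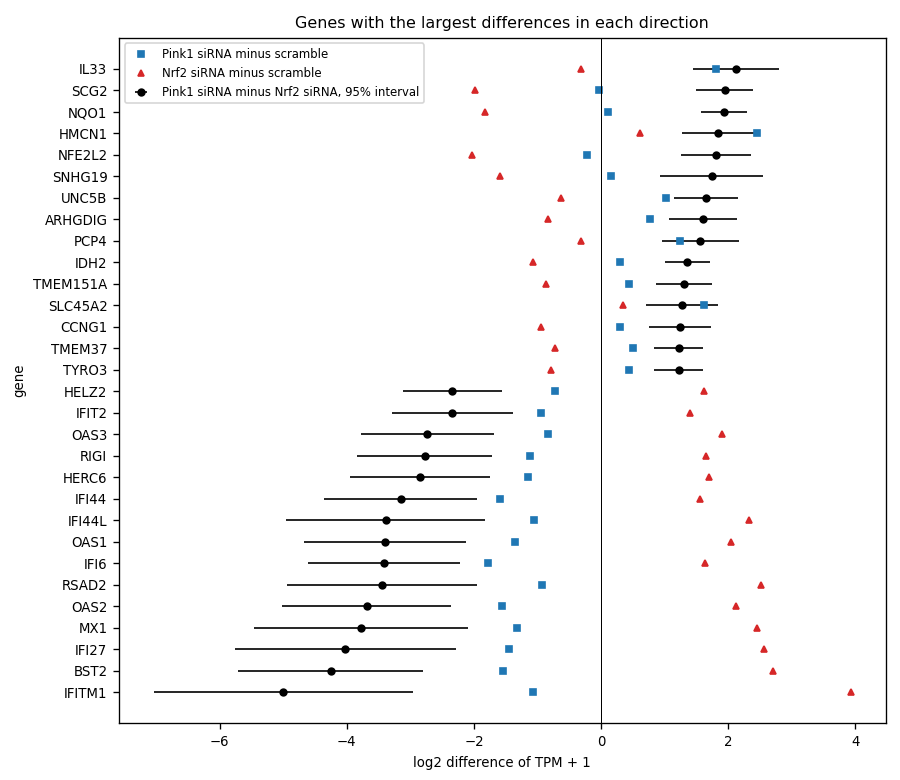
Log2 difference of TPM + 1 (x axis) for the 15 called genes with the largest difference in each direction and a mean of at least 5 TPM (rows). Black points are Pink1 siRNA minus Nrf2 siRNA with the 95% interval of the fit, blue squares Pink1 siRNA minus scramble and red triangles Nrf2 siRNA minus scramble; for SCG2, NQO1 and NFE2L2 the square is near 0, for IL33 and HMCN1 it is the triangle that is nearer.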

How the data were processed

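RNA was sequenced from ARPE-19 cells in 4 groups of 3 biological samples; stranded mRNA libraries were read in pairs, per the labels' protocols. The submitters' processing notes name STAR, RSEM, edgeR, GRCh37 and hg19; which step each served, and its version, is not given in the sources used here. For 24053 Ensembl genes in 24 columns, the authors deposited TPM, each column summing to 999678 to 999945, so depth is unknown. The gene name table holds 22789 of these identifiers, 19325 of them with a symbol.

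Each pair of technical replicates was averaged (2 columns per biological sample). Values were taken as log2(TPM + 1), with a pseudocount of 1 TPM, which makes folds of low genes too small. Genes whose mean over the 6 compared samples reached 1 TPM were fitted with limma 3.58.1 (R 4.3.3; intensity trend; 4 groups; 8 residual and 5.08 prior degrees of freedom), and the contrast of Pink1 siRNA with Nrf2 siRNA was tested two-sided with Benjamini-Hochberg adjustment over all 13856 genes; the fit was tested on simulated data. With 3 samples against 3, a permutation test of 1 gene could not go below 0.1. Gene lists were described by counts and medians, with no test. Promoter letters come from RefSeq (GRCh38.p14); no other coordinates are given because the files use another build. The samples were not treated as paired by replicate number. Deviations of same-numbered Pink1 siRNA and Nrf2 siRNA samples correlated with r of 0.0045, 0.0233 and -0.0753. In the interferon-stimulated genes, replicate 1 was the lowest of its group with Nrf2 siRNA, scramble and double siRNA, and replicate 3 with Pink1 siRNA. Whether samples of a number share a batch was not tested.

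Named genes are PINK1 and NFE2L2; the 15 called genes with the largest difference in each direction among those whose mean reached 5 TPM and whose groups do not overlap; per list up to 4 called members by adjusted p, or the 2 most abundant where none was called; and NQO1, TXNRD1, HMOX1, VIM, ZEB1, FN1, AKT1, CA9, TYRP1, TYR, CP, IFI6, BAX and BCL2. Others are said to be chosen after their values were seen. The comparison, members and lists were chosen with earlier results of these data known. Alternatives were pseudocounts of 0.1 and 5 TPM, a minimum of 5 TPM or none, rescaling by median of ratios, by quantiles or without ENSG00000226958, a fit of the compared groups alone or without the double siRNA samples, a block on the replicate number, either technical replicate by itself, sample weights, and leaving out each compared sample.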

Additional observations from a re-analysis of the deposited data

How the results depend on the processing

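The count of 140 called genes (53 higher and 87 lower with Pink1 siRNA) moved by more than 1.5 times under several settings, and no called gene named here changed direction under any setting tried. With median-of-ratios rescaling it was 297 (127 higher, 170 lower), with quantile normalization 355 (163 and 192), with ENSG00000226958 removed 319 (118 and 201), without the double siRNA samples 276 (101 and 175) and with samples weighted by their spread 696 (269 and 427). With no filter on low values it was 79 (39 and 40), and with technical replicate 2 alone 82 (34 and 48). Leaving out each of the 6 compared samples gave 36 to 184 called genes, 17 to 69 higher and 19 to 115 lower; 28 of the 140 were called in every such fit and 18 in none. The cause was not tested. Pseudocounts of 0.1 and 5 TPM, a minimum of 5 TPM, the compared groups alone and technical replicate 1 alone gave 134, 132, 170, 132 and 97. Of the 132 called with the compared groups alone, 94 were among the 140. In that fit HLA-C, IFIT2, RSAD2, PFKFB4, SLC45A2, SLC48A1 and SNHG19 lost their call (limma adjusted p of 0.0512 to 0.0988). With the replicate number as a block, 159 genes were called (53 higher, 106 lower), of which 122 were among the 140. Whether samples of a number share more than the number was not tested. No scaling moved the median over all genes by more than 0.1 on the log2 scale. Over the named genes and all settings, 1432 values kept their side of the threshold, 171 lost the call and 6 gained it. Direction was compared only for genes called in the main fit or in the setting. Of the medians of the lists and of all genes tested, 493 stayed within a limit and 20 did not. The limit was the spread between replicates for a list and 0.1 for all genes tested. Among the 20 was the median of the interferon-stimulated genes with a pseudocount of 5 TPM (-1.54). Depth is unknown, so no limit of detection can be given.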

Other observations

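The genes in this section were chosen after their values were seen. KRT34, a hair-type keratin that is not listed in the epithelial group above, was at 8.44, 9.32 and 10.3 TPM with Pink1 siRNA and 24.4, 77.6 and 33.6 TPM with Nrf2 siRNA (log2 difference -1.99, SE 0.32, limma adjusted p = 0.0105). KRT31, also a hair-type keratin (-1.22, adjusted p = 0.031) and the keratin-associated KRTAP2-3 (-1.46, adjusted p = 0.0375) lay on the same side, and in none of them did the groups overlap. The level of KRT34 and KRTAP2-3 was highest in Nrf2 siRNA replicate 2. KRT31 was at 2.33, 1.87 and 2.6 TPM against 6.16, 8.92 and 5.14 TPM, with the same sample highest. Other genes of these families were not compared as a group. KRT34 kept its call in 4 of the 6 refits, KRT31 in 2 and KRTAP2-3 in 1, with adjusted p of 0.0511 to 0.0548, 0.0866 to 0.145 and 0.08 to 0.155 where it was lost. KRT34 lost it without Pink1 siRNA replicate 1 or 3, KRT31 without any 1 of the Pink1 siRNA samples or Nrf2 siRNA replicate 2, and KRTAP2-3 in every refit but that without Nrf2 siRNA replicate 1.

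Another 4 genes of different roles were called lower with Pink1 siRNA. FGF1, a fibroblast growth factor, was at 7.41, 4.33 and 8.62 TPM against 22.8, 30 and 22.8 TPM (-1.78, SE 0.22, adjusted p = 0.0025). IGFBP5, which binds insulin-like growth factors, was at 22.8, 23.7 and 27.2 TPM against 53.5, 42.5 and 57.8 TPM (-1.02, adjusted p = 0.00815), both above the scramble level of 11.2 ± 0.929 TPM (SD, n = 3). SERPINE2, an inhibitor of thrombin and plasminogen activators, was at 8.27, 10.5 and 10.2 TPM against 27.2, 64.2 and 31 TPM (-1.87, adjusted p = 0.0184). SCHIP1, a cytoskeletal adaptor of the NF2 protein, was at 3.87, 3.32 and 3.05 TPM against 16.5, 15.3 and 32.4 TPM (-2.27, SE 0.26, adjusted p = 0.00232), with scramble at 3.21 ± 0.537 TPM, close to the Pink1 siRNA samples. FGF1, IGFBP5 and SCHIP1 were called in all 6 refits. SERPINE2 was called in 2 of the 6, and lost its call without any 1 of the Pink1 siRNA samples or Nrf2 siRNA replicate 2 (adjusted p of 0.0557 to 0.0856).

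Other genes had the Pink1 siRNA group away from scramble. CTSO, a lysosomal cathepsin, was at 5.39, 5.41 and 5.5 TPM with Pink1 siRNA, 15, 12.9 and 15.1 TPM with Nrf2 siRNA and 12.2, 12.4 and 12.2 TPM with scramble siRNA (-1.25, SE 0.15, adjusted p = 0.00232). ITGBL1, an integrin beta-like matrix protein, was at 13.2, 15.7 and 16.5 TPM against 42.3, 41.2 and 41.6 TPM (-1.41, adjusted p = 0.00232), and NEK7, a kinase of mitosis and of the NLRP3 inflammasome, at 13.7, 23.7 and 21.2 TPM against 47.6, 55.4 and 55.1 TPM (-1.42, adjusted p = 0.00526). In these genes the scramble means of 34.2 ± 3.87 TPM for ITGBL1 and 38.4 ± 5.12 TPM for NEK7 (SD, n = 3) were nearer the Nrf2 siRNA samples. All of these were called in every one of the 6 refits.

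On the Pink1 siRNA side, the translation factor EEF2, which moves the ribosome along its message, was at 1098, 1050 and 1357 TPM against 641, 588 and 663 TPM (0.88, SE 0.15, adjusted p = 0.0132). BCAT1, which transfers the amino group of branched-chain amino acids, was at 54.2, 54.2 and 55.1 TPM against 26, 25.2 and 29.7 TPM (0.99, adjusted p = 0.0172), and APIP, an enzyme of methionine salvage, at 26.6, 28.5 and 17.5 TPM against 11.6, 9.52 and 11.9 TPM (1.05, adjusted p = 0.0142). TUBB3, a tubulin of neurons and some epithelia, was at 51.1, 64.6 and 77.4 TPM against 33.1, 28.3 and 26.5 TPM (1.09, adjusted p = 0.00845), and was called in all 6 refits. The other three were not: EEF2 lost its call without Pink1 siRNA replicate 3 or Nrf2 siRNA replicate 2 or 3 (adjusted p of 0.0519 to 0.0717), BCAT1 without any 1 of the Pink1 siRNA samples or Nrf2 siRNA replicate 2 (0.0629 to 0.087), and APIP without Pink1 siRNA replicate 1 or 2 or Nrf2 siRNA replicate 2 (0.0717 to 0.0815).

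Some of the largest differences belonged to short non-coding transcripts and were not called. SNHG25, a host of small nucleolar RNAs, was at 2.9, 62.3 and 26.7 TPM with Pink1 siRNA and listed at 0 in all 3 Nrf2 siRNA samples (adjusted p = 0.323). SNORA18, a small nucleolar RNA, was at 28.2, 10.4 and 4.16 TPM and likewise listed at 0 with Nrf2 siRNA (adjusted p = 0.241). ENSG00000268809 was the reverse, at 74.6, 54.4 and 34.1 TPM with Nrf2 siRNA and listed at 0 with Pink1 siRNA (adjusted p = 0.135). A value of 0 in a table without counts can be a failed estimate.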
